A study of Mus musculus with 20 samples.

Results

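Pancreatic islets of male ob/ob mice after 39 weeks on the diet labelled HFD were set against islets of the same strain after 18 weeks on it. All arrays that the labels place on HFD without the second diet, CRD, were taken, which gave 10 of the 20 arrays in the series, 5 mice at 39 weeks and 5 at 18 weeks with 1 array per mouse. Every group carries the strain label B6.V-Lep ob/ob, so all mice, controls included, lack functional leptin, and no lean mice are analysed here. Age and time on the diet have the same number in the labels, so the effects of ageing and of longer feeding cannot be told apart. The other 10 arrays came from mice at the same ages moved to CRD for 2 days, 5 at each age. They entered the model for its estimate of the spread, and gave a second comparison of 39 with 18 weeks on arrays of other mice. The labels do not spell out either diet name. Islets were picked by hand out of collagenase-digested pancreas, and their RNA was labelled with Cy3 and read on 1-colour Agilent arrays.

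Islets hold beta cells, which make insulin, and smaller numbers of alpha, delta and PP cells, which make glucagon, somatostatin and pancreatic polypeptide. Leptin-deficient mice overeat and resist insulin, and their beta cells secrete under lasting demand. Series of this kind ask whether the genes that give beta cells their identity hold up with age under that demand. The pancreas around the islets is mostly acinar tissue, whose cells make digestive enzymes from messages that are among the most abundant in the gland. Hand-picked islets can carry some of that tissue along.

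Levels are log2 of the deposited intensity, on which a difference of 1 is a factor of 2, and each difference is the mean of the 39-week arrays minus that of the 18-week arrays. They rest on 18311 genes, those left after the lowest 30% by mean level were dropped, and a gene passed at an adjusted p under 0.05 in limma. Of all genes tested, 44.0% had a difference below 0. At an unadjusted p under 0.05 in limma, 1.92% were higher and 4.69% lower. Counts within the gene lists are to be read beside these shares. Every array had the same distribution of values. On the 1315 chemosensory receptor genes of the table, the arrays split into 3 array sets that no label records. Set A held 3 arrays of 39 weeks and 4 of 18 weeks, set B held 39-week replicate 5 and 18-week replicate 2, and set C held 39-week replicate 4. After CRD, set A held 4 arrays of 39 weeks and 1 of 18 weeks, set B held 0 of 39 weeks and 4 of 18 weeks and set C held 1 of 39 weeks, so age and array set are nearly aligned there. As sets A and B each held both ages on HFD, results are also given from a fit with the sets as a block (called blocked by set). Set C held only 39-week arrays, so no comparison of the ages lies within it. The 18-week arrays lay far apart on the first principal component (52.9% of the variance), from -74.6 for replicate 2 to 108.9 for replicate 5. The arrays carried the islet label: Iapp, the beta-cell peptide amylin, stood at 17.18 ± 0.14 on the 39-week and 17.06 ± 0.25 on the 18-week arrays (SD, n = 5 each), and Gcg, Sst and Ppy were at 13.63 or more on each of the 10.

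In the fit without array sets, the genes that rose with age on HFD were all acinar. Of 18311 genes, 17 passed (0.0928%), of which 13 rose (0.071%) and 4 fell (0.0218%), and each of the 13 was on a list of 36 genes known from acinar cells. They encode amylases (Amy1, Amy2a2, Amy2b), proteases of the trypsin, chymotrypsin and elastase families (Try4, Prss2, Ctrb1, Cela2a, Cela3b), the lipase Cel with the lipase cofactor Clps, and the secreted or granule proteins Dmbt1, Sycn and Zg16. Their log2 fold changes lay between 3.86 (Clps) and 6.98 (Amy2b). With arrays shifted to the same median, 21 genes rose and 79 fell. Blocked by set, 30 rose (0.164%), 8 of them neither on the acinar list nor following it, and 137 fell (0.748%).

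Amy2b, a pancreatic amylase that digests starch, had log2 intensities of 10.11, 10.90, 10.64, 10.27 and 11.39 on the 39-week arrays. On the 18-week arrays it had 10.02, 5.39, 0.88, 0.63 and 1.49. The 39-week arrays were therefore all high and close together, and the 18-week arrays ran from the lowest values of the table, which bottoms out at an intensity of 1.47, up to a single array, replicate 1, just under the 39-week range. The difference was 6.98 ± 1.28 (SE, adjusted p = 0.0332). With an offset of 16 added before the log it was 4.99, since the dim end of the scale depends on a background that is not known.

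Try4, a trypsinogen, the inactive form in which trypsin is stored, had 13.02, 13.92, 13.91, 13.28 and 13.72 on the 39-week arrays, against 12.94, 7.28, 5.58, 5.82 and 7.69 on the 18-week arrays. Here too the groups did not overlap, and 18-week replicate 1 lay 0.08 under the 39-week range. The difference was 5.71 ± 0.99 (adjusted p = 0.0296). Amy1, the amylase gene better known from the salivary gland, reached 11.15 to 12.25 at 39 weeks, against 2.60 to 10.78 at 18 weeks (6.48 ± 1.13, adjusted p = 0.0296). Amy2a2, a second pancreatic amylase, differed by 6.39 ± 1.15 (adjusted p = 0.0319), with 18-week replicates 1 and 2 again above the other 3. The amylase genes are near-identical copies, as are several trypsinogens, so probes of one may pick up another.

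The promoters of 3 of these genes are shown because the enzymes moved together and share a known regulator. Acinar enzyme genes are driven by the complex PTF1, in which Ptf1a pairs with an E protein and Rbpjl, and which binds a pair of short words near the start of its targets. The 250 bases before the start of Cel (chr2:28563404-28563653, minus strand), Cela2a (chr4:141826006-141826255, minus strand) and Prss2 (chr6:41521526-41521775, plus strand) follow, 5′ to 3′ on the gene's strand, from RefSeq on GRCm38.p6. Capitals mark CACCTG on either strand (read CAGGTG on the other) and TGGGAAA on either strand, and the words do not overlap.
Cel: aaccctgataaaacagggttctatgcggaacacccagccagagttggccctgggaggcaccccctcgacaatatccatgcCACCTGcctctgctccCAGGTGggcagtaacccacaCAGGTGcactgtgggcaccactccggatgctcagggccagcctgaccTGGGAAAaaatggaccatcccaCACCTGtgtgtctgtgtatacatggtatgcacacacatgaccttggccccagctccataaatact
Cela2a: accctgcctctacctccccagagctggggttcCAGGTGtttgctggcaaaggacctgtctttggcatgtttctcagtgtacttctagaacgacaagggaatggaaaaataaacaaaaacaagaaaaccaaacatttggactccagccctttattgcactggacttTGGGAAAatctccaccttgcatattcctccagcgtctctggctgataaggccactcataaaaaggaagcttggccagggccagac
Prss2: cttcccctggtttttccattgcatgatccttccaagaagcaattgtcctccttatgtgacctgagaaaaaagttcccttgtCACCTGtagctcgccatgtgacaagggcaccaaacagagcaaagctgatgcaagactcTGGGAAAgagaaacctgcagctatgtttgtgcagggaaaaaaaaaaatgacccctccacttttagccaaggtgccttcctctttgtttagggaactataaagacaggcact
These 3 are the acinar promoters that held both words, out of 21 with a sequence in the table (14.3%, against 1.17% of all 32851 promoters). CACCTG stood in 12 of the 21 (57.1%, against 17.2% of all) and TGGGAAA in 5 (23.8%, against 6.82%). The counts did not ask how far apart the words lie. CACCTG and TGGGAAA began 218 and 85 bases before the start in Cela2a, and 169 and 111 in Prss2. Cel had CACCTG at 4 places, the first at 170, and TGGGAAA at 87. A match describes letters, not a bound site or a cause. Clps, Dmbt1, Erp27, Try5 and Zg16 were not matched.

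The acinar list as a whole had 36 members, of which 30 were on the table and 26 were tested. Of these 26, 13 rose and 0 fell, 24 were higher at 39 weeks, and the median log2 fold change was 4.00, beside 0.04 over all genes tested. In 11 of the 26 the groups did not overlap with 39 weeks higher (0.251% of all genes tested). Blocked by set 19 rose, at a median of 4.15, and within set A the median was 4.05. Some members lay close to 0. Bhlha15, the acinar transcription factor Mist1, which other secretory cells also express, differed by -0.33 ± 0.20, and Gp2, a membrane protein of zymogen granules, by 0.03 ± 0.18. Ptf1a averaged 2.50 at 39 weeks and 2.45 at 18 weeks, and Rbpjl 4.50 at 39 weeks and 4.19 at 18 weeks, both under the filter. Pnliprp2, a lipase of the acinar cell, averaged 5.65 at 39 weeks and 3.10 at 18 weeks, and Cuzd1, a zymogen granule protein, 3.44 at 39 weeks and 1.37 at 18 weeks, also under the filter and not tested.

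The mean log2 intensity of the 26 tested members gave each array an acinar index. It was 9.85, 10.60, 10.53, 9.92 and 10.62 on the 39-week arrays and 9.82, 6.90, 5.80, 5.83 and 6.41 on the 18-week arrays. The groups did not overlap, but 18-week replicate 1 lay 0.03 below the lowest 39-week array while the other 18-week arrays lay 2.95 to 4.05 below it. It averaged 10.30 ± 0.39 at 39 weeks and 6.95 ± 1.67 at 18 weeks (SD, n = 5 each), a difference of 3.35 (two-sided exact permutation test, p = 0.00794). Within set A the difference was 3.36, and its exact p of 0.0571 was the smallest that 35 splits allow. The list took 0.357% to 0.63% of the summed intensity of an array at 39 weeks and 0.0187% to 0.35% at 18 weeks. Its summed intensity was 60700 to 108000 at 39 weeks and 3170 to 60200 at 18 weeks. As the tissue was bulk, more acinar cells and more RNA per acinar cell cannot be told apart.

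**Figure D1:**
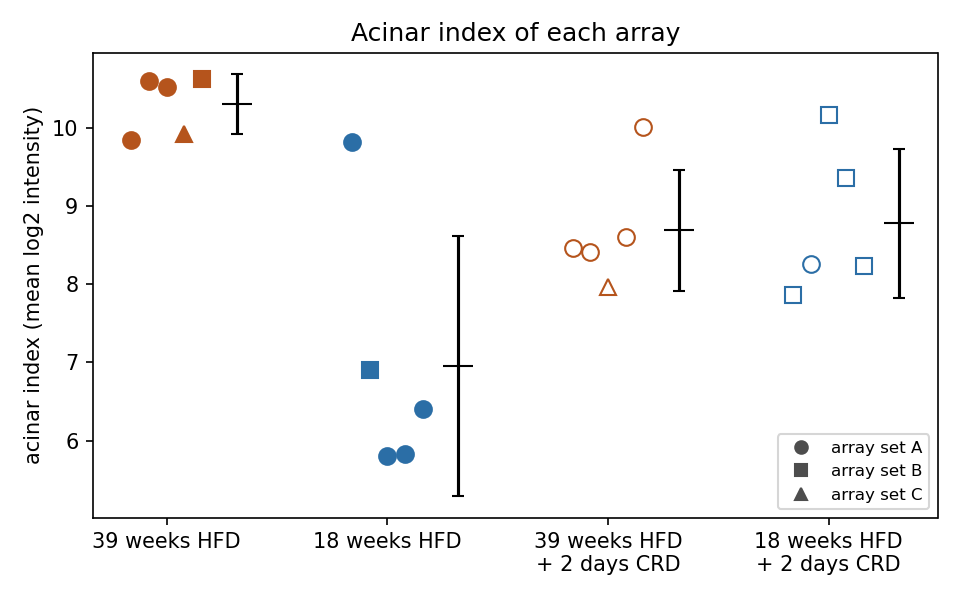
Acinar index (mean log2 intensity of 26 acinar genes, y axis) of each array in the 4 groups, with 39 weeks left of 18 weeks for HFD (filled) and after CRD (open). Marker shapes give the array set and black bars the mean with SD of 5 arrays. The 5 HFD arrays at 39 weeks sit between 9.85 and 10.62, and those at 18 weeks between 5.80 and 9.82, with 1 far above the other 4.

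On the arrays after CRD the same index did not separate the ages. It averaged 8.69 ± 0.78 at 39 weeks and 8.78 ± 0.96 at 18 weeks (SD, n = 5 each), a difference of -0.09. The age difference on HFD exceeded that after CRD by 3.44 (two-sided exact permutation of the diet labels within each age, 63504 splits, p = 0.00249). Blocked by set, with the labels permuted within each age and set, it was 3.23 (1750 splits, exact p = 0.0154), from 3.49 on HFD and 0.26 after CRD. The near alignment of age and set after CRD limits that value. Both permutations take as their null no diet difference at either age. Neither p is therefore exact for a difference between the age differences alone. Outside the list, 5 genes followed the index across arrays (Pearson r of 0.7 or more between deviations from the group means, 20 arrays). They were the protease inhibitor gene Spink1 (3.31 ± 0.72), the pancreatic disulfide isomerase gene Pdia2 (4.19 ± 0.86), Reg1 (2.11 ± 0.55), which encodes a lectin secreted by acinar cells, and the kallikreins Klk1b5 (1.59 ± 0.39) and Klk1b22 (1.02 ± 0.35). None of the 5 passed, with adjusted p from 0.0624 to 0.372, while Spink1, Pdia2 and Klk1b5 rose when blocked by set.

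Apart from acinar genes, the genes that passed were all lower at 39 weeks. They were Glyr1, whose protein binds nucleosomes, Ddx21, a nucleolar RNA helicase that serves ribosomal RNA synthesis, the clone gene C330007P06Rik and Hook1, an adaptor that ties cargo to microtubules. Glyr1 and C330007P06Rik are named after their values were seen. Ddx21 had 5.99, 5.31, 5.86, 5.76 and 6.06 on the 39-week arrays, against 6.26, 6.78, 7.75, 7.90 and 7.65 on the 18-week arrays. The groups did not overlap, and 18-week replicate 1 was again the array nearest to 39 weeks. Ddx21 fell by 1.47 ± 0.27 (SE, adjusted p = 0.0332). Hook1 had 7.51, 7.26, 7.41, 7.09 and 7.55 at 39 weeks and 7.79, 8.35, 8.70, 8.93 and 8.55 at 18 weeks. It fell by 1.10 ± 0.21 (adjusted p = 0.0477), with a log2 change of -1.05 when blocked by set. Glyr1 fell by 1.62 ± 0.28 (adjusted p = 0.0296), with a small overlap, since 39-week replicate 5 had 6.59 and 18-week replicate 1 had 6.56. C330007P06Rik fell by 1.12 ± 0.19 (adjusted p = 0.0296).

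These calls rest on few arrays. The total of 17 dropped to 0 when any 1 of 39-week replicates 1, 2, 3 and 4 or of 18-week replicates 3, 4 and 5 was left out. It was 283 without 18-week replicate 1, 47 without 18-week replicate 2 and 100 without 39-week replicate 5. Blocked by set, 167 genes passed in all (0.912%), the 17 among them, and leaving out single arrays moved that count between 0 and 781, the highest without 18-week replicate 1. With the acinar index as a covariate, 0 genes passed in limma and 202 had an unadjusted p under 0.05, against 1209 without it. The index itself did not overlap between the ages on HFD, so this fit cannot separate age from acinar content. Differences given below with the acinar covariate carry that limit.

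The 15 genes taken as lower at 39 weeks, all without overlap between the groups (0.797% of all genes tested in that direction and 1.05% in either), had differences between -1.47 and -0.76. Ddx21 and Hook1 passed, and all 15 fell when blocked by set, with a median of -1.10. Some of their proteins are known from membranes and vesicles, a grouping made after the values were seen and not tested. Atp6v1a, the catalytic subunit of the proton pump that acidifies granules and lysosomes, had 9.16 to 9.78 at 39 weeks, against 10.05 to 11.29 at 18 weeks (-1.06 ± 0.22, adjusted p = 0.0624, and 0.024 when blocked by set). Clint1, a clathrin adaptor at the Golgi and endosomes, had 8.63 to 9.01 at 39 weeks, against 9.29 to 10.42 at 18 weeks (-0.99 ± 0.21, adjusted p = 0.0648). Dennd4c, which activates the vesicle regulator Rab10, differed by -0.76 ± 0.16 (adjusted p = 0.0648), and Golm2, a Golgi membrane protein, by -1.10 ± 0.23 (adjusted p = 0.0624). Each of these 4 fell when blocked by set.

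Others of the 15 act on RNA, protein folding or the cytoskeleton. Eif4g2, an initiation factor used in non-canonical translation, had 8.78 to 9.28 at 39 weeks, against 9.45 to 11.05 at 18 weeks (-1.23 ± 0.26, adjusted p = 0.0652). Srek1, a splicing regulator, had 6.52 to 7.33 at 39 weeks, against 7.67 to 8.47 at 18 weeks (-1.12 ± 0.22, adjusted p = 0.0551). The Hsp90 co-chaperone gene Cdc37l1 (-1.25 ± 0.26) and Ubxn2a, an adaptor of the segregase p97 (-1.13 ± 0.22), had adjusted p of 0.0648 and 0.0604. Averaged over its 4 probes, Cdc37l1 differed by only -0.54 (adjusted p = 0.521 in limma). Kif2a, a kinesin that takes microtubules apart, differed by -0.91 ± 0.19, and Hells, a chromatin remodeller needed for DNA methylation, by -1.45 ± 0.30. Hells was dim, at 2.33 ± 0.18 on the 39-week and 3.77 ± 0.75 on the 18-week arrays (SD, n = 5 each), and with an offset of 16 its difference was -0.53. Both means were under the filter's level of 4.83, and Hells passed it through the CRD arrays (6.45 at 39 weeks and 6.88 at 18 weeks). N4bp2l2 (-1.05), Rufy2 (-0.91) and Vstm2a (-0.90) complete the 15. Vstm2a was also dim, at 4.33 at 39 weeks and 5.23 at 18 weeks, and with an offset of 16 its difference was -0.57.

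**Figure D2:**
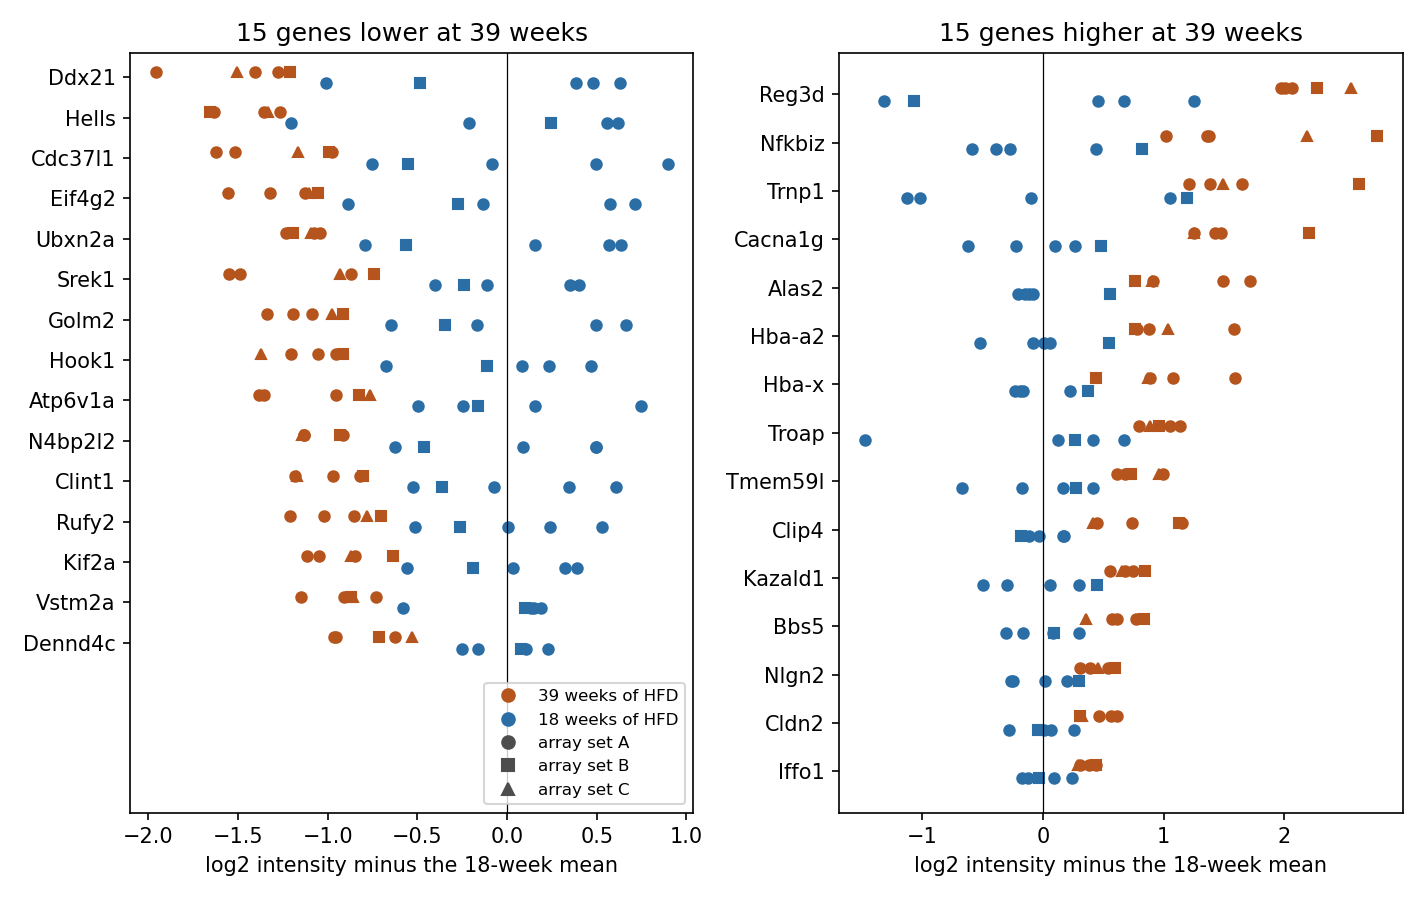
Log2 intensity of each array minus the mean of the 18-week arrays (x axis) for the 15 genes lower and the 15 genes higher at 39 weeks outside the acinar list (rows), with 39 weeks drawn above 18 weeks in each row and marker shapes for the array set. No row overlaps, which the choice of the genes required. In all 15 rows on the left the 18-week array nearest to the 39-week values is replicate 1, the array with the high acinar index. On the right the nearest is replicate 1 in 4 rows and replicate 2 in 8.

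On all 15, the 18-week array nearest to the 39-week values was replicate 1, whose acinar index was also nearest to theirs. Among the 15 higher genes, given below, the nearest was replicate 1 on 4 and replicate 2 on 8. Over all 20 arrays the correlation of the 15 lower genes with the index, on deviations from the group means, ran from -0.54 (Hells, Ubxn2a) to -0.12 (Dennd4c), with a median of -0.38. The same 18-week replicate 1, far above its group in the index, enters this correlation, so it is not a separate observation. The correlation over all genes is not given here. With the index as a covariate, the 15 differences shrank to between -0.81 and -0.53 and none passed. The acinar list made up at most 0.63% of the summed intensity of any of the 10 arrays. Its part in the lower levels was not tested further. On the arrays after CRD, all 15 were lower at 39 than at 18 weeks, by a median of -0.58 and between -0.76 and -0.11, where 60.0% of all genes tested were below 0. Blocked by set all 15 remained below 0 there (-0.62 to -0.24), where 45.1% of all genes were, although the 2 diets then share the array set terms. None of the 15 passed after CRD, where 5 genes passed in all (0.0273%) and 0 when blocked by set.

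**Figure D3:**
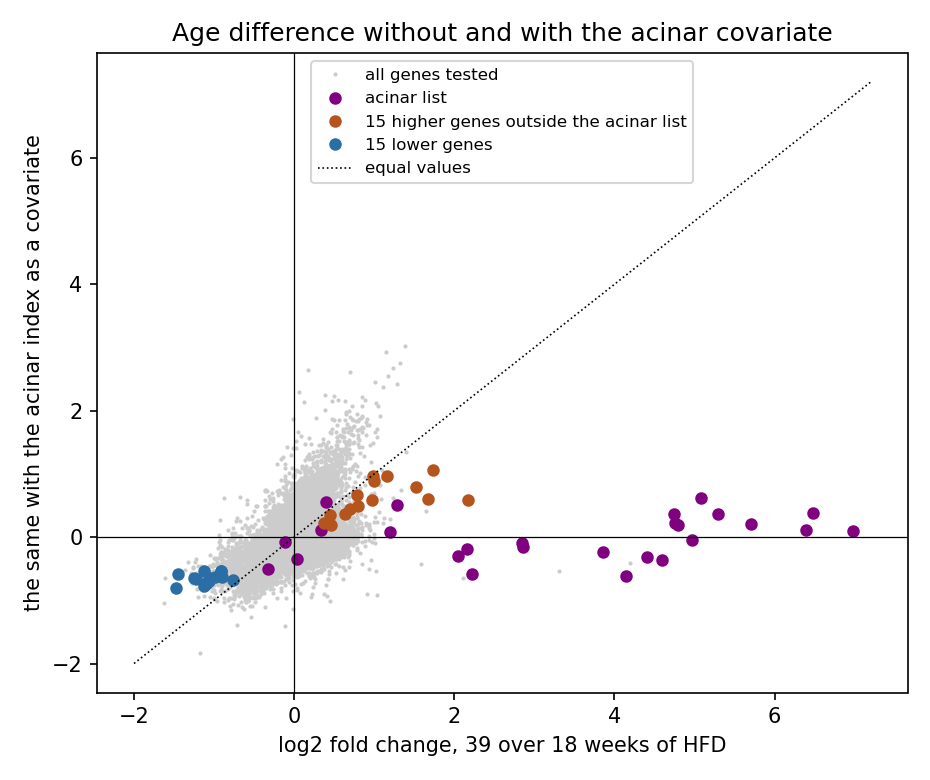
Log2 fold change, 39 over 18 weeks of HFD, without (x axis) and with (y axis) the acinar index as a covariate, for all 18311 genes tested, the acinar list and the named genes outside it. The dotted line marks equal values. The acinar genes, whose mean is the index, reach 6.98 on the x axis and lie near 0 on the y axis, and the 15 lower genes stay between -0.81 and -0.53 on the y axis.

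Outside the acinar list and the genes that follow it, 0 genes rose in limma, and 325 were higher at an unadjusted p under 0.05 (of all genes tested, 1.92% were). The 15 taken as higher at 39 weeks, again without overlap (0.251% of all genes tested in that direction), are given as values, and 4 of them rose when blocked by set. Cacna1g, a low-voltage calcium channel, had 6.01, 5.96, 5.78, 5.78 and 6.74 at 39 weeks, against 4.80, 5.01, 4.63, 4.31 and 3.91 at 18 weeks. The groups lay apart, with the set B array highest in each. The difference was 1.52 ± 0.33 (adjusted p = 0.0652, and 0.0239 when blocked by set). It was 1.07 with an offset of 16 and 0.80 with the acinar covariate. The 18-week mean of Cacna1g, 4.53, was under the filter's level of 4.83. Nfkbiz, which encodes a nuclear regulator of NF-kB target genes, had 5.89, 5.91, 5.55, 6.72 and 7.30 at 39 weeks, against 4.97, 5.35, 4.14, 3.94 and 4.26 at 18 weeks. Its difference was 1.74 ± 0.42 (adjusted p = 0.0864, and 0.0295 when blocked by set), and the 2 highest values belong to the 39-week arrays outside set A. With an offset of 16 the difference in Nfkbiz was 1.25. Its means at 18 weeks of HFD (4.53) and after CRD (4.17 at 39 weeks, 4.47 at 18 weeks) were under the filter's level of 4.83. Nfkbiz thus passed the filter through the 39-week HFD arrays, where it was high. Trnp1, a nuclear protein known from neural progenitors, differed by 1.67 ± 0.38 and Clip4 by 0.78 ± 0.20, with adjusted p of 0.024 and 0.0456 when blocked by set. On the arrays after CRD, 9 of the 15 were lower at 39 weeks, Cacna1g (-0.27), Nfkbiz (-0.30) and Trnp1 (-0.30) among them. Blocked by set, 3 of the 15 were lower there, and Cacna1g (0.51), Nfkbiz (0.31) and Trnp1 (0.57) turned to higher.

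Genes of red blood cells were higher at 39 weeks, though none passed. Alas2, the first enzyme of heme synthesis in red cell precursors, had 9.48, 9.26, 8.68, 8.67 and 8.53 at 39 weeks, against 7.62, 8.32, 7.56, 7.65 and 7.68 at 18 weeks (1.16 ± 0.28, adjusted p = 0.0917). Hba-a2, an adult alpha globin, differed by 1.00 ± 0.26 and Hba-x, an embryonic one, by 0.98 ± 0.25, and as globin genes are close copies their signals may be shared. All 4 tested erythroid genes were higher, with a median of 1.04, and 0.85 with the acinar covariate. Their summed intensity was 10900 to 19600 at 39 weeks and 4410 to 10200 at 18 weeks, and after CRD their median was 0.47. Blood left in the islets was not measured, and its part was not tested. Reg3d, a secreted lectin of the Reg family, had 5.10 to 5.68 at 39 weeks, against 1.81 to 4.38 at 18 weeks (2.17 ± 0.59, adjusted p = 0.135), and with an offset of 16 its difference was 1.09. On HFD its mean was 3.13 at 18 weeks, under the filter's level of 4.83. After CRD it averaged 5.59 at 39 weeks and 5.89 at 18 weeks. In that family 0 of 7 passed, 2 were higher at an unadjusted p under 0.05 (Reg1 and Reg3d), and the median was 0.19. The rest of the 15 were Tmem59l (0.80), Bbs5 (0.63), part of a complex that serves cilia, Kazald1 (0.70), the tight junction gene Cldn2 (0.45), Troap (0.97), the adhesion molecule gene Nlgn2 (0.46) and Iffo1 (0.37). Averaged over its 2 probes, Bbs5 differed by 0.35 (adjusted p = 0.821 in limma). Troap was dim on HFD, at 3.84 at 39 weeks and 2.87 at 18 weeks, under the filter's level of 4.83, and passed it through the CRD arrays (6.58 at 39 weeks and 6.81 at 18 weeks). With an offset of 16 its difference was 0.34.

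No islet hormone passed the test. Of 7 genes 0 passed in limma, also 0 at an unadjusted p under 0.05, and the median difference was 0.12. Ins2, which encodes insulin, was at 17.94, the top value of the table, on 4 of 5 arrays at 39 weeks and 3 of 5 at 18 weeks, so the table cannot show a rise in it. Gcg (glucagon) had 15.20, 14.96, 14.92, 15.35 and 15.67 at 39 weeks, against 14.72, 15.37, 15.13, 14.61 and 14.23 at 18 weeks. The ranges overlapped, and the difference was 0.41 ± 0.27 (adjusted p = 0.851). Iapp differed by 0.12 ± 0.14, Ppy by 0.16 ± 0.22, Sst by -0.20 ± 0.26 and the gut and islet peptide gene Pyy by 0.31 ± 0.24. Sst (15.08) and Pyy (16.55) were each highest at 39 weeks in replicate 5, the set B array.

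Transcription factors of islet identity leaned lower without passing. Of 17 tested, 0 passed in limma, 13 were lower, 6 were lower at an unadjusted p under 0.05 (4.69% of all genes tested), and the median was -0.14. Pdx1, the factor that both founds the pancreas and keeps insulin transcription going, had 5.59, 5.86, 5.96, 5.49 and 5.33 at 39 weeks, against 5.87, 5.92, 6.82, 7.30 and 7.00 at 18 weeks. The low 18-week arrays were replicates 1 and 2, and the groups overlapped. The difference was -0.94 ± 0.25 (adjusted p = 0.131, and 0.0902 when blocked by set), and -0.33 with the acinar covariate. The Pdx1 probe was dim, not far above the filter's level of 4.83, and with an offset of 16 its difference was -0.77. Mnx1, which holds beta cells apart from delta cells, differed by -0.60 ± 0.19 (adjusted p = 0.217, and 0.0766 when blocked by set). Mafa, the factor of mature beta cells, had 12.26 to 13.10 at 39 weeks, against 12.78 to 13.70 at 18 weeks (-0.28 ± 0.19), and Nkx6-1, which guards beta-cell identity, differed by -0.01 ± 0.21. After CRD the difference in Pdx1 was -0.12, and -0.39 when blocked by set.

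Genes of glucose sensing and incretin response split. Of 17 tested, 0 passed in limma, 9 were higher and 8 lower, and the median was 0.03. At an unadjusted p under 0.05, 1 was higher and 5 were lower (1.92% and 4.69% of all genes tested). Blocked by set 2 fell (0.748% of all genes tested). One was G6pc2, a glucose-6-phosphatase of islets, with 10.23, 9.67, 10.14, 10.55 and 11.46 at 39 weeks, against 10.56, 11.83, 12.42, 12.03 and 11.20 at 18 weeks. The ranges overlapped, as 39-week replicate 5 lay above 18-week replicates 1 and 5. Its difference was -1.20 ± 0.34 (adjusted p = 0.154), and -1.30 ± 0.28 (adjusted p = 0.0312) when blocked by set, but -0.45 with the acinar covariate. The other was Kcnj11, the pore of the ATP-sensitive potassium channel, named after its values were seen, at -0.73 ± 0.23 (adjusted p = 0.249) and -0.81 ± 0.17 (adjusted p = 0.0317) when blocked by set. Glp1r, the receptor of the incretin GLP-1, had 8.39, 8.34, 8.50, 8.34 and 8.53 at 39 weeks, against 8.65, 8.92, 9.16, 9.36 and 9.15 at 18 weeks. All 39-week arrays lay below all 18-week arrays, but it missed the threshold at -0.63 ± 0.15 (adjusted p = 0.0867, and 0.0531 when blocked by set). With the acinar covariate Glp1r was at -0.35 and Kcnj11 at -0.50. The glucose transporter gene Slc2a2 had 11.67 to 13.36 at 39 weeks, against 10.93 to 13.54 at 18 weeks, a difference of 0.20 ± 0.48. Ucn3, a peptide of mature beta cells, differed by 0.03 ± 0.24.

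**Figure D4:**
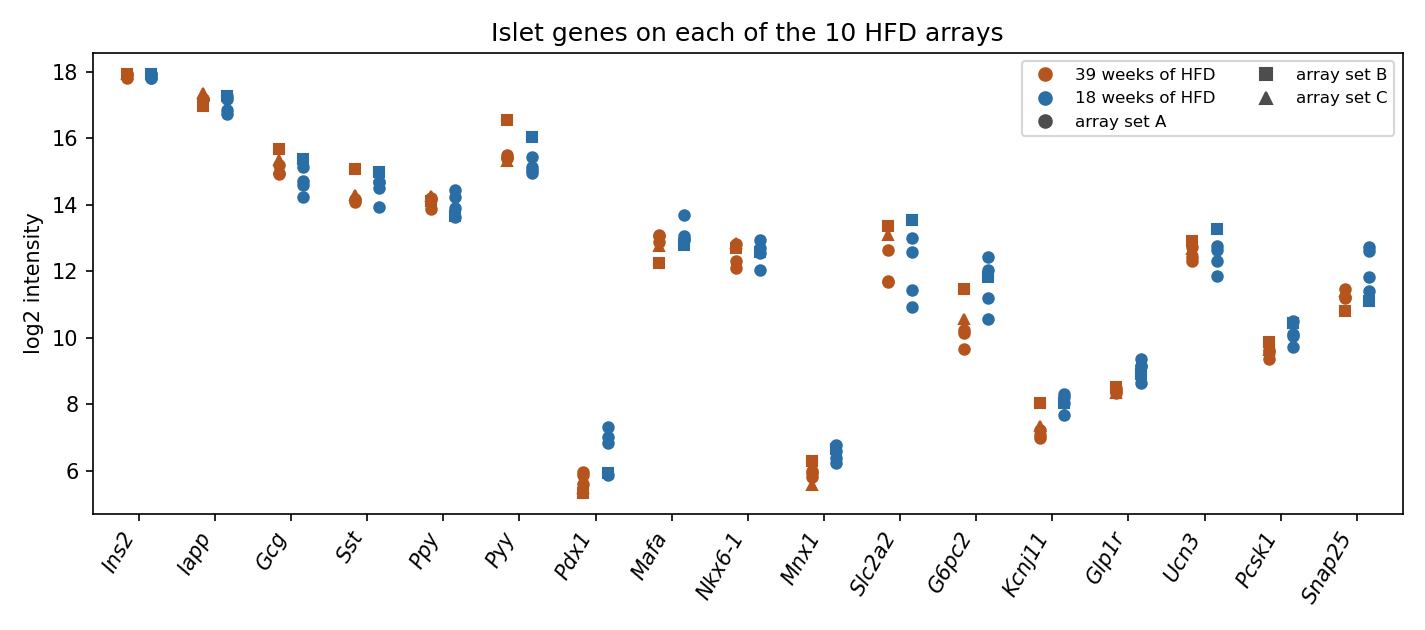
Log2 intensity (y axis) of islet hormone, transcription factor, glucose sensing and granule genes on the 10 HFD arrays, with the 5 arrays of 39 weeks left of the 5 of 18 weeks for each gene and marker shapes for the array set. Glp1r is the 1 gene shown whose groups do not overlap, and Ins2 sits at the top value of the table, 17.94, on most arrays.

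Among 20 genes of the secretory granule and exocytosis 0 passed in limma, 2 were lower at an unadjusted p under 0.05, and the median was 0.07. Those 2 were Pcsk1, the convertase that cuts proinsulin, at -0.54 ± 0.19 (adjusted p = 0.406, and 0.0772 when blocked by set), and the fusion protein gene Snap25, at -0.71 ± 0.25 (adjusted p = 0.404). Of 14 tested genes of dedifferentiation or of the set that beta cells keep silent, 7 were higher and 7 lower. Aldh1a3, an enzyme known to mark failing beta cells, had 6.76 to 7.54 at 39 weeks, against 7.18 to 8.34 at 18 weeks (-0.65 ± 0.25, adjusted p = 0.483), and the hormone gene Cck differed by -0.60 ± 0.26. Of 15 senescence genes 0 passed in limma and 0 had an unadjusted p under 0.05. Cdkn1a, the cell cycle inhibitor p21, differed by 0.18 ± 0.21. Cdkn2a, whose product p16 accumulates in ageing islets, was under the filter, at 3.66 ± 0.84 on the 39-week and 3.88 ± 0.78 on the 18-week arrays (SD, n = 5 each).

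Genes of the cell cycle numbered 33 tested, with 0 passed in limma, 5 lower at an unadjusted p under 0.05 (4.69% of all genes tested) and a median of 0.04. Mki67, present in cycling cells, had 5.58 to 6.65 at 39 weeks, against 5.60 to 6.70 at 18 weeks (-0.15 ± 0.38). Ccnd1, a cyclin of the entry into the cycle, had 7.94 to 8.30 at 39 weeks and 8.47 to 8.71 at 18 weeks, without overlap, a difference of -0.46 ± 0.14 (adjusted p = 0.211, and 0.0745 when blocked by set). Ccnd2, the main D-type cyclin of beta cells, differed by -0.28 ± 0.27. Among 12 genes of growth factor and prolactin response, the smallest p belonged to Pdgfa (-0.73 ± 0.19, adjusted p = 0.117), which encodes a growth factor, and Irs2 (-0.89 ± 0.31, adjusted p = 0.378), an adaptor of the insulin receptor. Pdgfa had no overlap between groups, and Irs2 overlapped through 39-week replicate 5.

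Protein folding and stress lists held no gene that passed. Of 29 genes of folding in the endoplasmic reticulum, 1 was higher and 5 were lower at an unadjusted p under 0.05 (1.92% and 4.69% of all genes tested). Their median was 0.15. Pdia6, a disulfide isomerase of insulin-secreting cells, differed by -0.73 ± 0.23 (adjusted p = 0.249) and fell when blocked by set (-0.85 ± 0.19, adjusted p = 0.0369). The chaperone partner gene Sdf2l1 differed by -0.61 ± 0.21 (adjusted p = 0.373). Of 14 genes of the integrated stress response, 12 were higher, with a median of 0.19 and 0 at an unadjusted p under 0.05 in limma. Trib3, a target of the stress factors ATF4 and CHOP, had 5.59 to 6.68 at 39 weeks, against 4.47 to 6.61 at 18 weeks (0.70 ± 0.34), and Chac1 differed by 0.64 ± 0.31. Of 22 antioxidant genes 17 were higher, 1 at an unadjusted p under 0.05, and 2 were lower at that level, the peroxidase gene Gpx3 (-0.50 ± 0.22) and Gclm (-0.43 ± 0.19), of glutathione synthesis. Txnip, a glucose-induced inhibitor of thioredoxin, differed by 0.39 ± 0.53.

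Metabolic lists leaned slightly higher, again with 0 passed in limma. The medians were 0.21 for 30 genes of oxidative phosphorylation (24 higher), 0.24 for 14 of glycolysis (12 higher), 0.25 for 21 of lipogenesis (16 higher), 0.15 for 15 of cholesterol synthesis (12 higher) and 0.19 for 17 of fatty acid oxidation (12 higher), beside 0.04 over all genes. With the acinar covariate these medians lay between -0.14 and -0.07, against -0.09 over all genes. Single members went the other way: Cox6a2, a heart-type subunit of cytochrome oxidase, had 10.34 to 10.90 at 39 weeks, against 11.04 to 12.20 at 18 weeks (-0.92 ± 0.36, adjusted p = 0.508), and Sdhc differed by -0.48 ± 0.19. Dgat2, which makes triglycerides, differed by 0.78 ± 0.32 and the pyruvate kinase gene Pklr by -0.52 ± 0.23. The other leading members were Pfkm (0.50 ± 0.24), Pfkp (0.59 ± 0.34), Hmgcs1 (0.71 ± 0.44), Nsdhl (0.51 ± 0.29), Angptl4 (0.96 ± 0.47) and Ppargc1a (0.42 ± 0.23), none with an adjusted p under 0.751. With the acinar covariate the sign turned for Cox6a2 (0.27), Angptl4 (-0.36), Dgat2 (-0.02), Pfkm (-0.12) and Pfkp (-0.14). They were the 5 that turned among the 64 named genes with a difference of at least 0.5 outside the acinar list and its followers. Of the 64, 41 shrank by over 1.5 times, 14 stayed within that and 4 grew by more. After CRD the medians of the metabolic lists lay between -0.46 and -0.28, against -0.18 over all genes. Blocked by set they lay between 0.07 and 0.11 there, against 0.02 over all genes.

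Among 17 clock genes 12 were higher and 5 lower. Clock, the activator that pairs with BMAL1, had 7.92, 7.37, 7.40, 7.85 and 8.03 at 39 weeks, against 8.24, 8.78, 9.12, 9.00 and 8.52 at 18 weeks. Every 39-week array was below every 18-week array. The difference was -1.02 ± 0.26 (adjusted p = 0.102), and Clock fell when blocked by set (-1.06 ± 0.22, adjusted p = 0.0298). The repressor gene Bhlhe41 differed by 0.56 ± 0.28. The hour at which islets were taken is not known here. Of 16 immediate early genes, which answer to stimulation and handling within minutes, 1 was higher and 2 were lower at an unadjusted p under 0.05. Egr1 had 7.40 to 8.49 at 39 weeks, against 5.49 to 7.83 at 18 weeks (0.95 ± 0.38, adjusted p = 0.542), and Nr4a1 had 8.38 to 9.83 at 39 weeks, against 9.36 to 10.91 at 18 weeks (-1.11 ± 0.37, adjusted p = 0.324).

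Markers of immune and other non-endocrine cells gave 0 genes that passed in limma. Of 17 genes of antigen presentation and interferon response 16 were higher, with a median of 0.31 (0.28 when blocked by set, 0.01 with the acinar covariate), and 2 were at an unadjusted p under 0.05, the immunoproteasome subunit gene Psmb9 (0.60 ± 0.28, adjusted p = 0.742) and Usp18 (0.62 ± 0.29, adjusted p = 0.742). Of 13 macrophage markers 11 were higher, with a median of 0.10, and their summed intensity was 18900 to 31200 at 39 weeks and 16100 to 36400 at 18 weeks. Aif1 differed by 0.37 ± 0.29 and Cd68 by 0.31 ± 0.20. Among 13 cytokine response genes the median was -0.03, with Il1b at 0.53 ± 0.39, Il1r1 at 0.49 ± 0.31 and Nfkbiz, described above, at the top. T-, B- and plasma-cell markers had a median of -0.18 over 13, with Cd3e at 0.40 ± 0.31 and Cd79a at -0.31 ± 0.18.

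Stromal and matrix genes leaned lower. Of 10 stromal, pericyte and smooth muscle markers 9 were lower, with a median of -0.14. Rgs5, a marker of pericytes, had 8.37 to 9.28 at 39 weeks, against 9.45 to 10.58 at 18 weeks, without overlap (-0.87 ± 0.25, adjusted p = 0.166, and 0.0966 when blocked by set), and Pdgfrb differed by -0.29 ± 0.21. Of 23 matrix genes 16 were lower, with a median of -0.09. The basement membrane collagen gene Col4a1 (-0.36 ± 0.16) and the fibrillar collagen gene Col1a2 (-0.30 ± 0.17) had no overlap. Of all genes tested, 0.797% were lower at 39 weeks without overlap. The 15 endothelial markers had a median of 0.00, with Vwf, a clotting factor of vessel walls, at 1.00 ± 0.41 (adjusted p = 0.585) and Emcn at -0.29 ± 0.20. Duct markers had a median of 0.14 over 7 (Krt18 0.28, Muc1 -0.35), adipocyte markers 0.15 over 5 (Fabp4 0.83, Plin1 -0.32), Schwann and neural markers -0.28 over 3 (Gfap 0.27, Ngfr -0.28) and mesothelial markers 0.26 over 2 (Upk3b 0.41, Msln 0.12). Markers of the other endocrine cells had medians of 0.41 over 7 for alpha cells, with Pou3f4 at 0.56 ± 0.34, -0.13 over 4 for delta cells, with Ghsr at -0.38 ± 0.31, and 0.23 over 2 for PP cells.

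**Figure D5:**
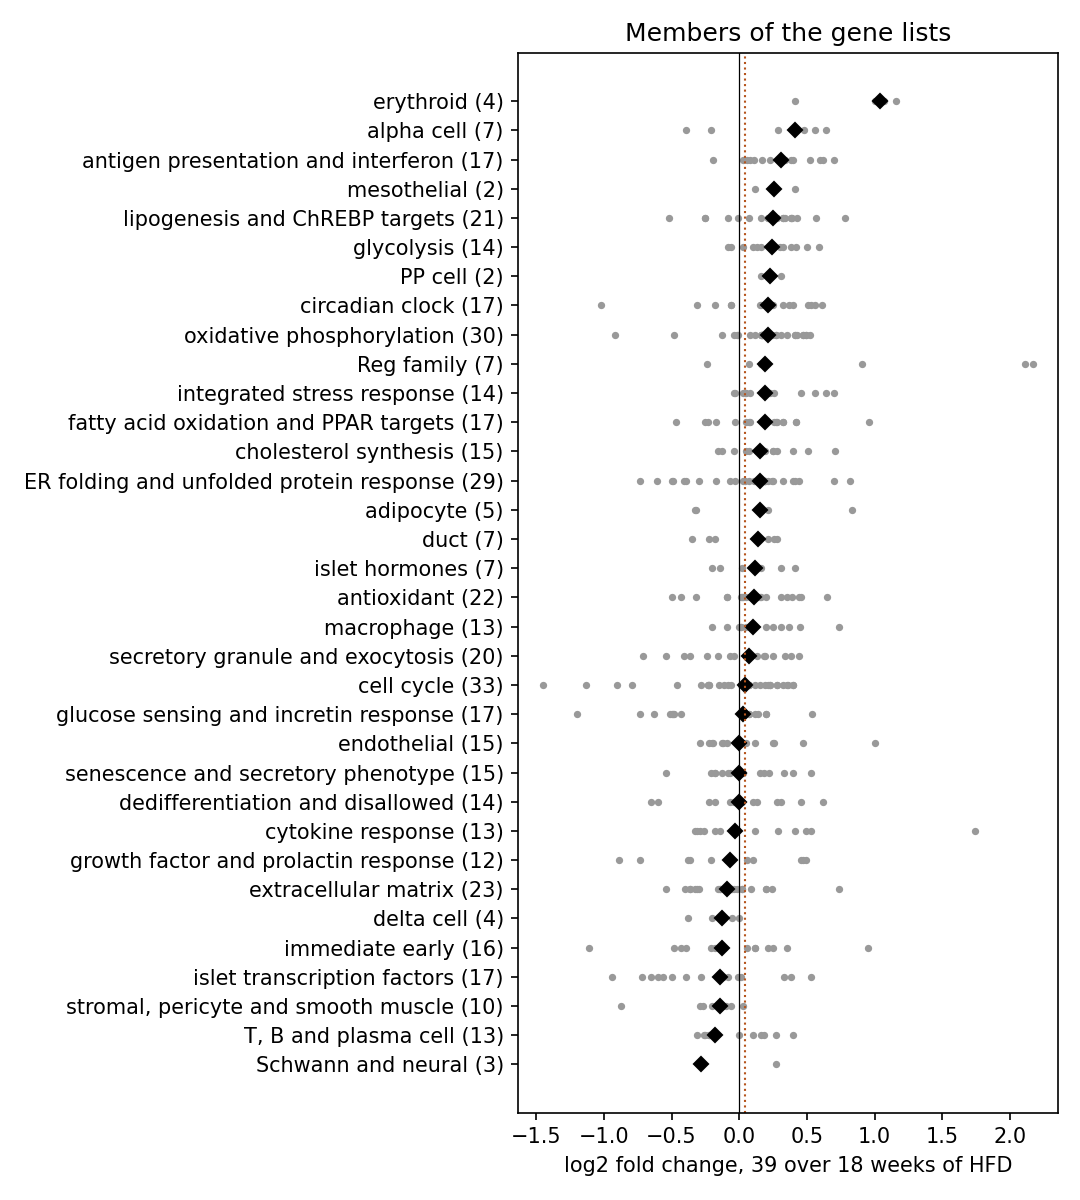
Log2 fold change, 39 over 18 weeks of HFD (x axis), of each tested member (grey) and the median (black diamond) of the gene lists other than the acinar list, with the number tested in brackets. The solid line is at 0 and the dotted one at the median of all genes tested, 0.04. The erythroid list stands highest with a median of 1.04, and the other medians lie between -0.28 and 0.41.

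Whether any gene changed with age on HFD in another way than after CRD was asked with the difference of the 2 age effects. In limma 0 of 18311 genes passed, with 4043 at an unadjusted p under 0.05 and 327 when blocked by set, and the smallest adjusted p was 0.222. No single gene is therefore given here as particular to HFD.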

How the data were processed

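The authors deposited 1 intensity per probe and array for 59448 probes of a 1-colour Agilent array; per the submitters' processing notes, Agilent Feature Extraction 11 read the images. How background was corrected and which software normalized the values is not known here. Sorted, the values of the 20 deposited columns were the same, so the intensities had been quantile normalized. They were used as log2. Of the probes, 30010 had 1 gene symbol, 0 several and 29438 none in the platform annotation; the brightest probe stood for each of 26159 genes, and the lowest 30% by mean (log2 4.83) were left out. Ins1 is not analysed here.

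The model was limma 3.58.1 (lmFit, eBayes; R 4.3.3) with the 20 arrays in 4 groups, p-values adjusted by Benjamini-Hochberg over 18311 genes and a threshold of 0.05, tested on simulated data. The acinar index was compared by exact permutation over arrays. Array sets came from average-linkage clustering. The series gives 5 mice per group. Replicate numbers were shared between ages, but same-numbered arrays correlated at -0.79 to 0.37 (deviations from group means), so the numbers did not pair arrays. The number of arrays limits the precision.

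The comparison, the 35 gene lists (638 entries, 501 tested) and all rules were chosen with earlier results of these data known. Named genes outside the acinar list were 15 per direction: those called, largest change first, then those of smallest p, without overlap between groups and of the same direction with the array set as a block. From each list up to 4 called members of largest change or else the 2 of smallest p were named, and Ins2, Gcg, Sst, Ppy, Iapp, Pdx1, Mafa, Nkx6-1, Slc2a2, Glp1r, Ucn3, Cdkn2a, Cdkn1a, Mki67, Ccnd2, Aldh1a3 and Txnip always; a further gene of that rule is not reported here. Other acinar genes, followers of the index, Kcnj11, Glyr1 and C330007P06Rik were named after their values were seen. Alternatives covered the array sets, the acinar index, array weights, an offset of 16, filters, probe choice, scaling, replicate number and each array left out. Array sets with arrays left out were added after seeing the data.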

Additional observations from a re-analysis of the deposited data

Results flagged for a closer look

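Of 216 groups of 5 arrays examined for a single array far from the other 4, 11 (5.09%) held one, where chance gives about 1 in 20. On the 39-week arrays these were Cacna1g (6.74), Irs2 (10.48), Pyy (16.55) and Sst (15.08), each highest in replicate 5, the set B array, and Ins2 (17.82), lowest in replicate 3 while the other 4 stood at the top value of the table. On the 18-week arrays they were the acinar index (9.82, the other 4 at 5.80 to 6.90), Try4 (12.94) and Reg1 (7.91), each highest in replicate 1, Vstm2a (4.65), lowest in replicate 1, Alas2 (8.32), highest in replicate 2, and Troap (1.40), lowest in replicate 4. The age difference in the acinar index was larger on HFD than after CRD by 3.44 (two-sided exact permutation of the diet labels within each age, p = 0.00249). The null of that permutation is no diet difference at either age. Every HFD array at 39 weeks lay above every HFD array at 18 weeks, and the groups overlapped after CRD.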

How the results depend on the processing

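The count of 17 genes was 167 with array sets as a block, 44 with replicate number and array set as blocks (39 higher and 5 lower, where the array sets alone gave 30 higher and 137 lower), 100 with arrays shifted to the same median and 1605 with array quality weights. It was 0 within set A, on the 10 HFD arrays alone, without a filter on low genes, with the acinar covariate, with that and the array set, and with a replicate block. Leaving out single arrays gave 0 to 283, and the same in the array-set fit, an alternative added after seeing the data, 0 to 781 (60, 100, 108 and 399 without 18-week replicate 5, 39-week replicates 4 and 1 and 18-week replicate 2). The cause was not tested. The acinar index difference kept its direction in every alternative (3.00 to 4.07; 3.06 to 4.07 with single arrays left out) and missed the threshold within set A (3.36, exact p = 0.0571) and with the replicate block (3.35, exact p = 0.0625), each the smallest p its splits allow. Its excess over the age difference after CRD was 3.23 with array sets as a block, also added after seeing the data. The exact p of 0.0154 there, from diet labels permuted within age and set, is for no diet difference at either age. For the difference of the age effects 0 genes passed in 7 of 7 settings run. With the acinar covariate and the array set, Amy2b (-0.04) and Try4 (-0.05) changed sign. Both belong to the genes whose mean is the index, so that fit removes their difference by construction. Over 24 alternatives the 107 named genes changed sign in 55 of 2540 comparisons. Dim genes are limited by the unknown background, and 5 arrays per group limit every call.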

Other observations

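Some genes had age differences of opposite sign on HFD and after CRD, on arrays of different mice, with values after CRD that move with the array sets. Trib3, a target of the integrated stress response, differed by 0.70 ± 0.34 (SE) between 39 and 18 weeks of HFD and by -1.50 after CRD, and the difference of the age effects was -2.20 (unadjusted p = 0.000178, adjusted p = 0.222 in limma). Chac1, of the same response, stood at 0.64 on HFD and -0.80 after CRD, and Egr1 at 0.95 on HFD and -0.89 after CRD. Nr4a1 went the opposite way, at -1.11 on HFD and 0.58 after CRD. Blocked by set, the values after CRD were -0.77 for Trib3, -0.59 for Chac1, -0.11 for Egr1 and 1.03 for Nr4a1. Aldh1a3 was among the 5 genes that passed for age after CRD (-1.90, adjusted p = 0.00409) and was at -0.65 on HFD, and 0 of those 5 did when array sets were a block. As 0 genes passed for the difference of the age effects, no gene here is shown to differ between the diets.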
